A study of Mus musculus with 2 samples.

Results

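The cells described here are 113 lung cells out of 20390 kept cells (21077 barcodes in all) of 2 single-cell RNA libraries, chosen because they carried RNA of Col1a1, Col1a2, Col3a1 and Dcn, the genes of type I and III collagen and of decorin. A kept cell had at least 200 genes, at least 500 unique molecular identifiers (UMIs, each standing for 1 captured RNA molecule) and at most 20% of its UMIs from mitochondrial genes. A chosen cell also had at least 8 UMIs of the 4 genes, at least 0.1% of its UMIs from them, no UMI of the endothelial, epithelial, T cell and B cell genes Cdh5, Epcam, Cd3e and Cd79a, and at most 6% of its UMIs from the neutrophil genes S100a8 and S100a9. They numbered 46 of 8314 kept cells in the LPS_MCZ library (0.553%, exact 95% Clopper-Pearson interval 0.405% to 0.737%) and 67 of 12076 in the LPS library (0.555%, 0.430% to 0.704%). All values of the 4 genes below describe this choice and support nothing.

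The LPS_MCZ library came from male ICR mice aged 6 to 8 weeks that received lipopolysaccharide (LPS), the bacterial outer membrane component used to inflame the lung, and miconazole (MCZ), an azole antifungal, by intraperitoneal injection. The LPS library came from mice of the same strain, sex and age that received LPS without miconazole, so both groups carried the LPS challenge and no unchallenged lung was compared. The sample label gives the miconazole dose as 0.2 mg/kg and the protocol as 1 mg/kg. Each library pooled the left lower lobes of all mice of its group with no map from cells to mice, and the labels state neither the number of mice nor the LPS dose and times. Each group is therefore 1 sample, no difference below has a replicate check, no p-value is given, and every interval covers counting error only.

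Lung fibroblasts are the mesenchymal cells that make and remodel the interstitial matrix of collagen, elastic fibres and proteoglycans. Adventitial fibroblasts surround airways and vessels, alveolar fibroblasts lie in the alveolar walls next to the epithelium, and both kinds sense LPS, interleukin 1, tumour necrosis factor and interferons and answer with chemokines and acute phase proteins. Mesothelial cells of the pleura and smooth muscle cells make type I and III collagen too, so a choice by collagen RNA can hold all of them.

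The chosen cells carried 15425 CPM of the 4 genes (CPM being UMIs scaled to the same total in each library) in LPS_MCZ, against 18687 CPM in LPS, and the rest of the kept cells carried 12.63 CPM and 17.97 CPM. Per cell, the 4 genes gave 8 to 1118 UMIs with a median of 88.5 in LPS_MCZ, against 8 to 1740 with a median of 78 in LPS. Cells just inside the UMI limit, with 8 to 12 UMIs of the 4 genes, numbered 2 in LPS_MCZ and 7 in LPS, and cells just outside, with 4 to 7 UMIs, numbered 7 in each library. Apart from the 4 genes, the 5 genes with the highest level over the rest of the kept cells were Cxcl5 (724-fold), Ccl19 (491-fold), Mgp (473-fold), Ccl11 (424-fold) and Bgn (420-fold). These are sums over cells: Cxcl5 had a UMI in 8 LPS_MCZ and 6 LPS cells, 66.0% of the LPS_MCZ UMIs of Ccl11 lay in 1 cell, and so did 55.0% of the LPS UMIs of Mgp. Mgp is matrix Gla protein, an inhibitor of calcification, and Bgn is biglycan. Ccl19, a chemokine of adventitial stroma, is one of several near-identical gene copies in the mouse, so its count is uncertain.

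The label holds only in part. When the 113 cells were clustered by themselves, 9 cells formed a smooth muscle-like cluster (7 of 7 markers raised) with Acta2 at 10188 CPM, Myh11 at 3802 CPM and no UMI of Dcn. Another 17 cells formed a mesothelial-like cluster (7 of 7 markers raised) with Msln at 2563 CPM and Upk3b at 1277 CPM. The largest cluster, of 39 cells, was adventitial fibroblast-like (4 of 10 markers raised), with Mfap5 at 910 CPM and Dpt at 542 CPM. It was led by Cxcl5, Ptx3 and Tac1, and the adventitial marker Dpp4 had a UMI in only 1 of its cells. At a finer resolution 13 cells formed a peribronchial fibroblast-like cluster. A cluster of 33 cells had the most collagen, with Col1a2 at 13083 CPM, and 4 adventitial and 2 alveolar fibroblast markers raised, but also 6 neutrophil markers, and stays unnamed as cluster 2. It had more of some adventitial markers than the named cluster, with Dpt at 943 CPM and Pi16 at 1062 CPM, against 491 CPM of Pi16 in the named one. The fifth, cluster 4 with 15 cells, had Msln at 3349 CPM and 5 of 7 mesothelial markers raised. It was led by Hbegf, S100a4 and Serpinb2. The epithelial marker Ager, but no mesothelial marker, was among its 10 leading genes, so cluster 4 also stays unnamed.

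**Figure D1:**
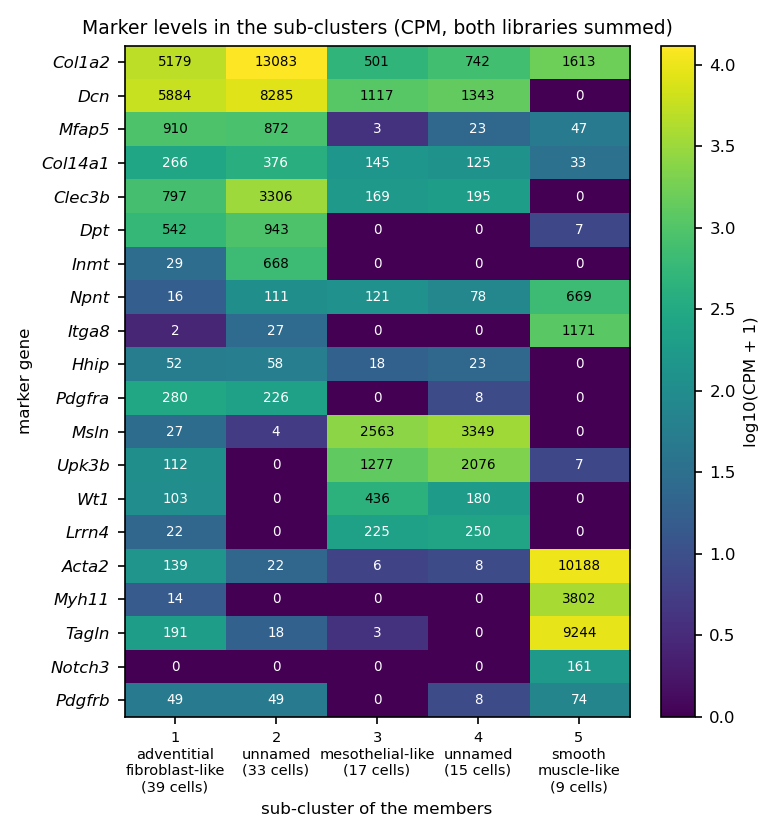
Marker genes (rows) in the 5 sub-clusters (columns), as CPM of both libraries summed, printed in each cell and coloured as log10(CPM + 1). Acta2 and Myh11 stand at 10188 and 3802 CPM in the smooth muscle-like cluster, and Msln at 2563 and 3349 CPM in clusters 3 and 4.

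In cells by library, the adventitial fibroblast-like cluster held 12 LPS_MCZ and 27 LPS cells, cluster 2 held 17 and 16, the mesothelial-like cluster 5 and 12, cluster 4 held 8 and 7, and the smooth muscle-like cluster 4 and 5. Some genes that define these clusters also differed between the libraries, so the sizes are not compared. By UMIs, which make up the sums behind every ratio below, the adventitial fibroblast-like cluster gave 34.7% of LPS_MCZ and 44.8% of LPS UMIs, cluster 2 gave 19.9% and 12.5%, the mesothelial-like cluster 20.3% and 28.2% and cluster 4 gave 14.1% and 4.21%. As shares of the chosen cells, the mesothelial-like cluster was 10.9% (3.62% to 23.6%) in LPS_MCZ and 17.9% (9.61% to 29.2%) in LPS, and the smooth muscle-like cluster 8.70% (2.42% to 20.8%) in LPS_MCZ and 7.46% (2.47% to 16.6%) in LPS. Cluster 4, which had mesothelial markers too, was 17.4% (7.82% to 31.4%) in LPS_MCZ and 10.4% (4.30% to 20.3%) in LPS. The name fibroblasts is kept below for all 113 cells, so it also covers these cells with mesothelial or smooth muscle markers.

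The summed depth of the fibroblasts was 700436 UMIs in LPS_MCZ and 694053 UMIs in LPS, so the UMI counts of a gene can be read nearly side by side. The median cell had 12748 UMIs and 3438 genes in LPS_MCZ, against 8070 UMIs and 2368 genes in LPS. S100a8 and S100a9, taken here as a measure of free RNA from neutrophils, took 0.207% of fibroblast UMIs in LPS_MCZ and 0.456% in LPS. They took 9.67% and 10.2% of UMIs in the rest of the kept cells. Ptprc, the pan-leukocyte gene CD45, had a UMI in 11 of 46 LPS_MCZ and 10 of 67 LPS fibroblasts, and the free RNA estimate could supply 73% and 88% of its UMIs. Cells with Ptprc and with Lyz2 or Csf3r, possible doublets with a leukocyte, numbered 9 in LPS_MCZ and 8 in LPS and held 32.5% and 29.6% of the fibroblast UMIs. Their median was 22768 UMIs in LPS_MCZ and 21340 in LPS, against 7318 and 6838 UMIs in the other fibroblasts. Doublets and depth therefore cannot be told apart in sums without these cells. S100a8 and S100a9 took 0.301% of the UMIs of the possible doublets in LPS_MCZ and 1.06% in LPS. In the other fibroblasts they took 0.162% and 0.200%. The free RNA estimate was scaled to all fibroblasts, the possible doublets included. Part of it may thus be RNA of doublets, which was not tested. The summed neutrophil markers stood at 2226 CPM in LPS_MCZ and 4881 CPM in LPS. They include S100a8 and S100a9, which the choice of cells limited, so this sum is no separate check. The summed markers of macrophages and monocytes stood at 121 and 64.8 CPM. Those of epithelial cells stood at 163 and 43.2 CPM, with Sftpb, Sftpa1 and Cdh1 at 0. All 4 T cell markers were at 0 in both, Cd3e by the choice of cells. Of 243 barcodes present in both libraries, 2 belonged to LPS_MCZ and 3 to LPS fibroblasts. The part of these differences in the results was tested only where a value without such cells is given.

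Across 4595 genes with at least 50 fibroblast UMIs over both libraries, 351 were at least 1.5-fold higher in LPS_MCZ (7.64% of genes tested) and 695 at least 1.5-fold lower (15.1%). The median log2 ratio of LPS_MCZ over LPS, taken on CPM + 1, was -0.05 with a standard deviation over genes of 0.57. Without the possible doublets the split was 643 higher and 595 lower, so the excess of lower genes was not seen without those cells. They also had the higher median depth.

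Genes of the interferon response were the group with the lowest median ratio of the 34 gene lists examined. Of 33 interferon genes tested, 30 had lower CPM in LPS_MCZ, 17 were at least 1.5-fold lower and 0 at least 1.5-fold higher, beside 15.1% and 7.64% of all genes. The median log2 ratio of the list was -0.61, beside -0.05 for all genes tested. The fibroblasts of LPS_MCZ held 8707 UMIs of the list (12431 CPM) and those of LPS 11264 UMIs (16229 CPM).

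In brackets after a log2 ratio stands its exact 95% counting interval. Ifit1, which binds viral RNA lacking a host cap, had 67 UMIs in 20 of 46 LPS_MCZ cells, against 355 UMIs in 45 of 67 LPS cells, a log2 ratio of -2.41 (-2.82 to -2.04). Its relative Ifit3 had 87 UMIs in LPS_MCZ and 268 in LPS (-1.63, -2.00 to -1.28). Rsad2, viperin, had 27 UMIs in 13 LPS_MCZ cells and 152 in 39 LPS cells (-2.48, -3.15 to -1.91). For Rsad2 the free RNA estimate could account for 33% of the LPS_MCZ UMIs and 19% of the LPS UMIs, and its ratio with free RNA subtracted was -2.77. Usp18, the ISG15 protease that restrains interferon receptor signalling, had 9 UMIs in 6 LPS_MCZ cells and 69 in 30 LPS cells (-2.86, -4.14 to -1.94). For each of these 4 genes a smaller share of the LPS_MCZ fibroblasts had a UMI.

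Isg15, a ubiquitin-like modifier, was the most abundant of the strongly lower genes, with 437 UMIs in 37 LPS_MCZ cells and 980 in 60 LPS cells (-1.18, -1.34 to -1.01). The RNA sensor RIG-I, encoded by Ddx58, had 27 UMIs in LPS_MCZ and 83 in LPS (-1.61, -2.32 to -0.99). Trim30a had 44 and 127 UMIs (-1.53, -2.07 to -1.04). The signal transducer Stat2 had 58 UMIs in LPS_MCZ and 124 in LPS (-1.10, -1.59 to -0.65). Cxcl10, a chemokine induced by interferon that draws T cells, had 192 UMIs in 22 LPS_MCZ cells and 826 in 35 LPS cells (-2.11, -2.35 to -1.89). Cxcl10 was not on the interferon list and has no part in its counts or median.

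Some interferon genes with many UMIs in both libraries had ratios nearer 0 than Isg15 (437 UMIs in LPS_MCZ, 980 in LPS, -1.18). The GTPases Iigp1 (684 UMIs in LPS_MCZ, 888 in LPS) and Gbp2 (585 and 782) had log2 ratios of -0.39 and -0.43, and the membrane protein Ifitm3 (3212 and 3504) one of -0.14. Bst2, tetherin, had the other sign with 1293 UMIs in LPS_MCZ and 980 in LPS, a log2 ratio of 0.39 (0.27 to 0.51), but -2.74 within the smooth muscle-like cluster. In the class I antigen presentation list, 9 of 13 genes were below 0 and 2 at least 1.5-fold lower, a share near that of all genes, with B2m at -0.56 (849 UMIs in LPS_MCZ, 1239 in LPS) and H2-K1 at -0.44 (827 and 1110).

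**Figure D2:**
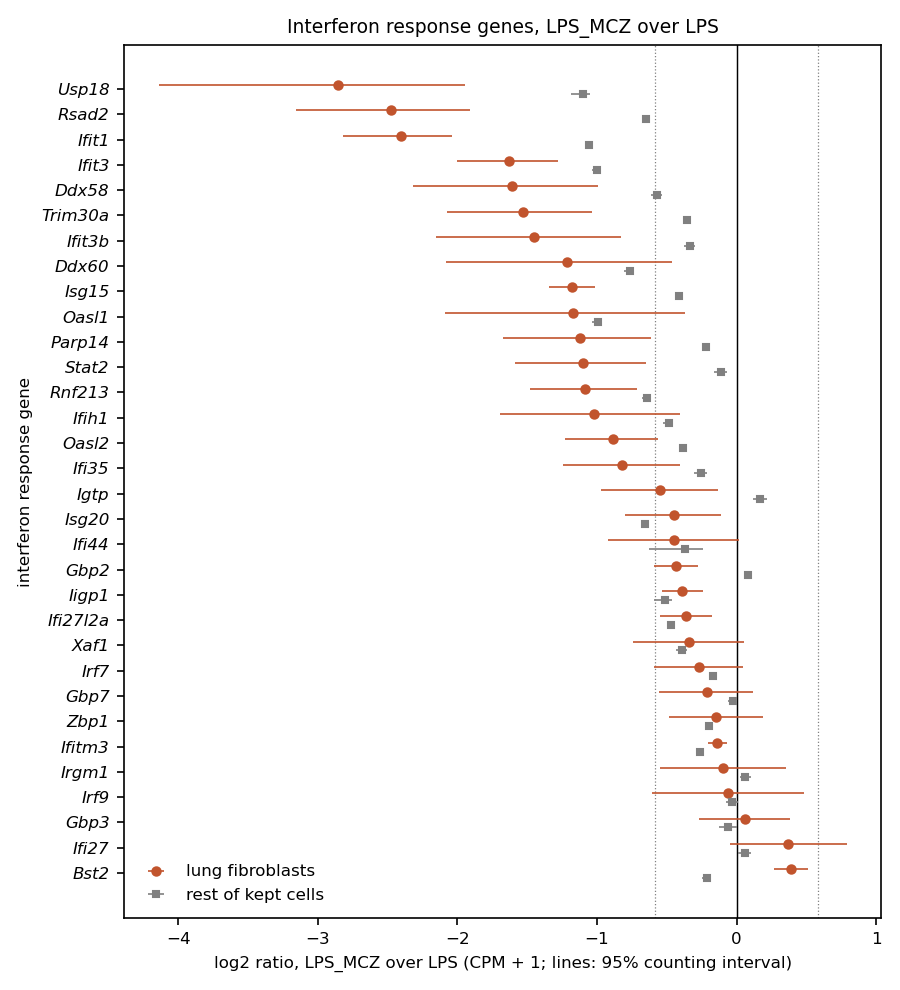
Log2 ratios of LPS_MCZ over LPS (x axis, CPM + 1) of 32 of the interferon response genes in fibroblasts (circles) and in the rest of the kept cells (squares), with 95% counting intervals and dotted lines at 1.5-fold. The points of Usp18, Rsad2 and Ifit1 lie below -2 in fibroblasts, and Bst2 lies at 0.39.

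The rest of the kept cells had a median log2 ratio of -0.35 over the same 33 genes, and lung endothelial cells of the same libraries (97 in LPS_MCZ and 124 in LPS) one of -0.35. The ratios for single genes were -1.06 for Ifit1, -0.65 for Rsad2 and -0.41 for Isg15 in the rest of the kept cells, beside -2.41, -2.48 and -1.18 in fibroblasts. With 1 library a group the difference between cell types has no test, and the lower level of these genes is not shown to be particular to fibroblasts.

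The difference was spread over cells. Each fibroblast had UMIs of the list, which made up 0.0713% to 3.06% of a cell's UMIs with a median of 1.24% in LPS_MCZ, against 0.532% to 3.77% with a median of 1.54% in LPS. The 2 ranges overlap over most of their length. For Ifit1, Ifit3, Rsad2, Isg15 and Usp18 together the median cell stood at 0.0773% in LPS_MCZ and 0.211% in LPS. In the adventitial fibroblast-like cluster the median share of the whole list was 1.13% in LPS_MCZ and 1.42% in LPS, in cluster 2 it was 1.24% and 1.91%, in the mesothelial-like cluster 1.57% and 1.74%, in cluster 4 it was 1.74% and 2.31%, and in the smooth muscle-like cluster 0.582% and 1.03%. The median ratio of the list over genes was below 0 in each of the 5 clusters, between -0.30 and -2.15. The -2.15 came from the smooth muscle-like cluster, over 12 genes in 4 LPS_MCZ and 5 LPS cells. In the other clusters 21 to 32 genes had enough UMIs.

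**Figure D3:**
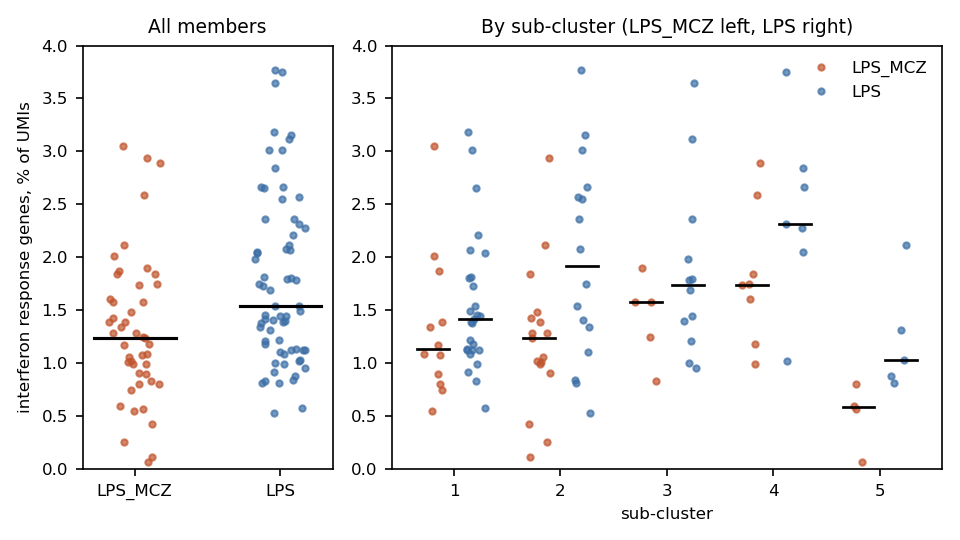
Percentage of each fibroblast's UMIs that came from the 33 interferon response genes (y axis), for all members (left panel) and by sub-cluster (right panel), LPS_MCZ left of LPS, 1 point a cell, bars at the median. The medians are 1.24% in LPS_MCZ and 1.54% in LPS, and the points of the 2 libraries overlap.

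Depth differed between the libraries, so shares of cells with a UMI were also taken after thinning each cell to 2000 UMIs, which left 43 LPS_MCZ and 51 LPS fibroblasts. Ifit1 then had a UMI in 18.6% of LPS_MCZ cells (8.39% to 33.4%) and 51.0% of LPS cells (36.6% to 65.2%). In T cells, which also answer interferons and so give no pure background, Ifit1 stood at 22.6% in LPS_MCZ and 35.2% in LPS. Isg15 had a UMI in 55.8% of LPS_MCZ and 78.4% of LPS fibroblasts. Unthinned, Ifit1 had a UMI in 43.5% of LPS_MCZ and 67.2% of LPS fibroblasts.

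The promoters of 4 of these genes are shown because all of them stood lower in LPS_MCZ fibroblasts and hold GAAA, any 2 bases and GAAA again, a core of the interferon-stimulated response element. The sequences are the 250 bases before the start site from RefSeq (build GRCm38.p6), 5′ to 3′ on the gene's strand, with matches on either strand in capitals. In Isg15 3 matches overlap.
Ifit1, chr19:34640639-34640888, plus strand: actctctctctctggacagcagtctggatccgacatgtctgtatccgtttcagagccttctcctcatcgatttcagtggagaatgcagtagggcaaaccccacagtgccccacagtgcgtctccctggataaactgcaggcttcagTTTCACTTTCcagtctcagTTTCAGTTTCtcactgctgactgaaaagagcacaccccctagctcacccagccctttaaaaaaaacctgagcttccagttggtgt
Rsad2, chr12:26456453-26456702, minus strand: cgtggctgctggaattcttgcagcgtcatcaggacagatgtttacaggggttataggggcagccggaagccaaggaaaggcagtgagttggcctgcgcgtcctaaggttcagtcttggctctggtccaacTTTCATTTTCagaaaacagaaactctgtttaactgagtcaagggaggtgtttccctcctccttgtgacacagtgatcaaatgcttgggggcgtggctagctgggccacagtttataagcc
Isg15, chr4:156200819-156201068, minus strand: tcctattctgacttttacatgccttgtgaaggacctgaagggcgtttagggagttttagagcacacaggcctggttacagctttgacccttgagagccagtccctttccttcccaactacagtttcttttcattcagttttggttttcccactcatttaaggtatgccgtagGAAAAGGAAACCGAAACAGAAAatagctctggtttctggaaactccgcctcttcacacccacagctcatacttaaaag
Cxcl10, chr5:92348890-92349139, minus strand: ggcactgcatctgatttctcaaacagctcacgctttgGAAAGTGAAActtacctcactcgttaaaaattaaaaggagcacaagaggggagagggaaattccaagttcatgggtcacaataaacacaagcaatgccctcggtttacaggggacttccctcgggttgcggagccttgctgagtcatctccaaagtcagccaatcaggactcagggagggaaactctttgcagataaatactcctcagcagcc

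The matches begin 104 and 85 bases before the start site in Ifit1, 120 in Rsad2, 78, 72 and 66 in Isg15, and 213 in Cxcl10. Of the 33 interferon genes tested, which leave out Cxcl10, 26 had a promoter entry and 14 of these held the letters, beside 3.46% of the 27025 genes in the table. The median log2 ratio was -1.14 for the 14 genes with the letters and -0.63 for the 12 without. A match of letters is a description and does not show that a factor bound there.

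Of the structural matrix genes, 5 fibrillar collagens were tested and all 5 were below 0, but 3 of them chose the cells and the list's median of -0.41 is the value of Col3a1, so the list is a description. Col1a1 had 1969 UMIs in LPS_MCZ and 2485 in LPS (-0.35), Col1a2 had 2565 and 3763 (-0.57), Col3a1 had 3159 and 4155 (-0.41), and Dcn had 3111 and 2567 (0.26, but -0.45 without the possible doublets). As the 4 genes chose the cells, these values are a description. Col5a1, which starts collagen fibrils, had 75 UMIs in LPS_MCZ and 122 in LPS (-0.71, -1.15 to -0.29), and Col14a1, a fibril-associated collagen, 107 and 195 (-0.87, -1.23 to -0.53).

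Elastic fibre genes were below 0 in 11 of 13 genes tested, with 4 at least 1.5-fold lower and 0 higher, beside 15.1% and 7.64% of all genes, and a median of -0.36. Eln, which encodes elastin, had 484 UMIs in 27 LPS_MCZ cells and 1144 in 46 LPS cells (-1.25, -1.41 to -1.10). The ratio of Eln was -1.48 without the cell with most Eln UMIs in each library and -1.05 without the possible doublets, and below 0 in each of the 5 clusters. Ltbp1, which holds latent TGF-beta on microfibrils, had 66 UMIs in LPS_MCZ and 226 in LPS (-1.78, -2.21 to -1.39). A single LPS cell of 56494 UMIs gave 66 of those 226 Ltbp1 UMIs, and the ratio without the deepest cell of each library was -1.44. Mfap4 of the microfibrils had 398 UMIs in LPS_MCZ and 605 in LPS (-0.62, -0.80 to -0.43). In the rest of the kept cells, where these genes are near 0, Eln had a log2 ratio of 0.27.

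Genes that process and cross-link collagen were below 0 in 12 of 15 tested, and 3 of 15 were at least 1.5-fold lower, a share near the 15.1% of all genes, with Lox, lysyl oxidase, at 76 UMIs in LPS_MCZ and 135 in LPS (-0.84, -1.27 to -0.43) and the procollagen peptidase Adamts2 at 178 and 317 (-0.84, -1.12 to -0.58). The gelatinase Mmp2 had 156 UMIs in LPS_MCZ and 261 in LPS (-0.75, -1.05 to -0.46). Lumican, Lum, had 108 and 175 UMIs (-0.71, -1.07 to -0.36), and the hyaluronan receptor Cd44 had 139 and 270 (-0.97, -1.28 to -0.67). Over 16 other settings the ratio ran from -1.03 to -0.07 for Adamts2 and from -1.09 to -0.09 for Lum. The other sign was seen for Timp1, the inhibitor of matrix metalloproteinases, with 1587 UMIs in LPS_MCZ and 1279 in LPS (0.30, 0.19 to 0.41), for Serpine2 with 119 and 61 (0.94, 0.49 to 1.42) and for Plat, the tissue plasminogen activator, with 81 UMIs in 18 LPS_MCZ cells and 15 in 7 LPS cells (2.37, 1.61 to 3.32). Sparc, a collagen-binding glycoprotein, differed little, with 4753 UMIs in LPS_MCZ and 5558 in LPS (-0.24), and its ratio was 0.10 with each cell weighing the same.

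Contractile genes marked the smooth muscle-like cells, where Acta2 stood at 10188 CPM, against at most 139 CPM in the other clusters. Acta2 had 675 UMIs in 10 LPS_MCZ cells and 932 in 13 LPS cells (-0.48), Tagln had 670 and 822 (-0.31) and Myl9 151 and 262 (-0.81, -1.11 to -0.51). Of 15 contractile and myofibroblast genes tested, 9 were below 0, 3 at least 1.5-fold lower and 1 at least 1.5-fold higher, shares near the 15.1% and 7.64% of all genes. The median of the list was -0.17, but 0.74 over 4 genes in cluster 2 and 1.36 over 4 genes in cluster 4.

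Of 16 genes of TGF-beta and BMP signalling, the pathway that drives matrix production, 12 were below 0, 5 at least 1.5-fold lower and 2 at least 1.5-fold higher, beside 15.1% and 7.64% of all genes (median -0.29). The ligand Tgfb2 had 47 UMIs in 14 LPS_MCZ cells and 154 in 33 LPS cells (-1.71, -2.23 to -1.25), and after thinning a UMI in 9.30% of LPS_MCZ and 35.3% of LPS fibroblasts, with 0.217% and 0.203% of T cells. The type II receptor Tgfbr2 had 142 UMIs in LPS_MCZ and 270 in LPS (-0.94, -1.24 to -0.64), whereas the type I receptor Tgfbr1 had 68 and 41 (0.71, 0.14 to 1.31). Follistatin, Fst, which binds activins, had 70 and 132 UMIs (-0.92, -1.37 to -0.50). Pdgfra, the receptor for platelet-derived growth factor that marks many fibroblasts, had 65 UMIs in LPS_MCZ and 142 in LPS (-1.13), but 58 of the LPS UMIs lay in 1 cell and the ratio was 0.15 with each cell weighing the same.

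Receptors for cytokines and bacterial products had the third lowest median of the lists (-0.52), with 15 of 19 genes below 0, 7 at least 1.5-fold lower and 0 higher, beside 15.1% and 7.64% of all genes. Tlr2, the sensor of bacterial lipopeptides, had 26 UMIs in LPS_MCZ and 64 in LPS (-1.29, -2.03 to -0.63), and the interleukin 17 receptor Il17ra 23 and 57 (-1.30, -2.09 to -0.60). Osmr, the oncostatin M receptor, had 88 and 145 UMIs (-0.73, -1.13 to -0.34), the tumour necrosis factor receptor Tnfrsf1a 95 and 147 (-0.64, -1.03 to -0.26), and the interleukin 1 receptor Il1r1 153 and 173 (-0.19, -0.51 to 0.13). The interval of Il1r1 spans 0.

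The chemokines differed in sign. Cxcl1, which draws neutrophils, had 1196 UMIs in LPS_MCZ and 1274 in LPS (-0.10, -0.22 to 0.01), but its ratio was -1.54 without the possible doublets, -0.92 with each cell weighing the same and 2.56 within the smooth muscle-like cluster. Of those that draw monocytes, Ccl2 had 1502 UMIs in LPS_MCZ and 1202 in LPS (0.31, 0.20 to 0.42), and 0.00 without the cell with most Ccl2 UMIs in each library. Ccl7 had 696 and 1116 UMIs (-0.69, -0.83 to -0.56) and Ccl8 had 84 and 148 (-0.83, -1.23 to -0.43). The neutrophil chemokine Cxcl5 had 1938 UMIs in LPS_MCZ and 192 in LPS (3.32, 3.11 to 3.54), yet these lay in 8 of 46 LPS_MCZ and 6 of 67 LPS cells. A single LPS_MCZ cell of 48062 UMIs, with 4 UMIs of Ptprc, gave 1085 of the Cxcl5 UMIs, and without the possible doublets the ratio was -1.25.

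Of 10 cytokine genes tested, 9 were below 0 and 4 at least 1.5-fold lower, 1 at least 1.5-fold higher and 2 open to free RNA, meaning that the free RNA estimate could supply 50% or more of their UMIs. The shares of all genes were 15.1% lower and 7.64% higher. Il6 had 94 UMIs in 11 LPS_MCZ cells and 139 in 20 LPS cells (-0.57, -0.97 to -0.19), and the macrophage growth factor Csf1 had 94 and 174 (-0.90, -1.28 to -0.53). Mif had 201 UMIs in LPS_MCZ and 124 in LPS (0.68, 0.35 to 1.02). Among NF-kB genes, the transcription factors and targets that carry LPS and cytokine signals to the nucleus, 14 of 18 were below 0, 4 at least 1.5-fold lower and 1 higher, shares not far from the 15.1% and 7.64% of all genes (median -0.34). Nfkb1 had 200 UMIs in LPS_MCZ and 305 in LPS (-0.62, -0.89 to -0.36), Tnip1 77 and 141 (-0.88, -1.31 to -0.48) and Birc3 98 and 166 (-0.77, -1.15 to -0.40). The inhibitor Nfkbia, the most direct target, had 1026 and 1054 UMIs (-0.05, -0.18 to 0.07).

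Acute phase and antimicrobial genes were split. Of 15 tested, 5 were at least 1.5-fold higher and 3 at least 1.5-fold lower, beside 7.64% and 15.1% of all genes, and the median was -0.05. Saa3, the serum amyloid A made outside the liver, was the most abundant, with 8899 UMIs in 36 LPS_MCZ cells and 4277 in 48 LPS cells (1.04, 0.99 to 1.10). The LPS_MCZ cell of 48062 UMIs gave 4030 of the Saa3 UMIs, and without the deepest cell of each library the ratio was 0.33. The ratio of Saa3 was above 0 under 16 of 16 other settings, but the median cell had the other direction. In the median cell Saa3 made up 0.0845% of UMIs in LPS_MCZ and 0.172% in LPS. Slpi, an inhibitor of neutrophil elastase, had 3415 UMIs in 20 LPS_MCZ cells and 1541 in 28 LPS cells (1.13, 1.05 to 1.22), with a ratio of 1.10 without the cell with most Slpi UMIs in each library and 1.74 without the possible doublets. Lcn2, lipocalin 2, which binds bacterial siderophores, had 2133 and 1306 UMIs (0.69, 0.59 to 0.79), with up to 30% of the LPS UMIs open to free RNA. The pentraxin Ptx3 had 728 UMIs in 14 LPS_MCZ cells and 405 in 28 LPS cells (0.83), 325 of them in that same LPS_MCZ cell, and a ratio of -1.56 without the possible doublets.

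Complement genes had a median of 0.00 over 11 tested. C3 had 2869 UMIs in LPS_MCZ and 2409 in LPS (0.24, 0.16 to 0.32), but a ratio of -0.13 with each cell weighing the same. Cfb of the alternative pathway had 702 and 469 (0.57, 0.40 to 0.74), and C7 of the membrane attack complex 191 and 291 (-0.62, -0.89 to -0.35).

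The heat shock list was the group with the highest median (0.40), with 6 of 14 genes at least 1.5-fold higher and 0 lower, beside 7.64% and 15.1% of all genes. The small chaperone Hspb1 had 1912 UMIs in LPS_MCZ and 976 in LPS (0.96, 0.84 to 1.07), Dnajb1 had 430 and 211 (1.01, 0.77 to 1.26), Dnaja1 611 and 364 (0.73, 0.54 to 0.93) and Hspa1a 908 and 580 (0.63, 0.48 to 0.79). The median was -0.034 without the possible doublets, 0.055 with each cell weighing the same and -0.080 after thinning, so the higher level was not seen under those settings. The early response genes Fos (2129 UMIs in LPS_MCZ, 1368 in LPS) and Jun (1703 and 984) had ratios of 0.62 and 0.78, and the list of 22 such genes a median of 0.11. Cell dissociation raises both gene groups, and its part in the result was not tested.

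Azole antifungals act on the sterol demethylase that mammals encode as Cyp51, so sterol genes were examined. Of 9 genes of cholesterol synthesis tested, 6 were above 0, 1 was at least 1.5-fold higher and 0 lower, beside 7.64% and 15.1% of all genes, and the median was 0.27. The median was -0.16 after thinning and -0.068 in cluster 1. In cluster 4 the 9 genes together had 147 UMIs in LPS_MCZ and 5 in LPS. That cluster held 98879 UMIs of all genes in LPS_MCZ and 29229 in LPS. Cyp51 had 33 UMIs in LPS_MCZ and 27 in LPS (0.27, -0.50 to 1.07), Hmgcs1 had 83 and 68 (0.27, -0.21 to 0.76) and the regulator Srebf2 72 and 43 (0.72, 0.17 to 1.31). The intervals of Cyp51 and Hmgcs1 span 0, and a difference was not detectable at this depth. Ch25h and Cyp7b1, enzymes that make and degrade 25-hydroxycholesterol, had 29 UMIs in LPS_MCZ and 62 in LPS (-1.09, -1.80 to -0.45) and 55 and 277 (-2.33, -2.79 to -1.92), but 195 of the LPS UMIs of Cyp7b1 lay in the cell of 56494 UMIs, which had 10 UMIs of Ptprc. Pltp, the phospholipid transfer protein, had 44 and 88 UMIs (-1.00, -1.57 to -0.48). Of the retinoid genes, Aldh1a1, which makes retinoic acid, had 469 UMIs in LPS_MCZ and 245 in LPS (0.92, 0.70 to 1.15).

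Genes of growth arrest were below 0 in 7 of 8 tested, with a median of -0.40. Of the 8, 2 were at least 1.5-fold lower and 1 at least 1.5-fold higher, beside 15.1% and 7.64% of all genes. Cdkn1a, the cell cycle inhibitor p21, had 69 UMIs in LPS_MCZ and 189 in LPS (-1.46, -1.89 to -1.06), and Mdm2, the p53 ligase, 33 and 89 (-1.43, -2.07 to -0.85), with 58.4% of its LPS UMIs in 1 cell. Gclc, for glutathione synthesis, had 38 and 102 UMIs (-1.42, -2.02 to -0.89), and the metallothionein Mt1, with 14787 UMIs in LPS_MCZ and 16677 in LPS, differed by -0.19. Of the transcription factors, Tcf21 of alveolar fibroblasts had 18 and 43 UMIs (-1.24, -2.15 to -0.45) and Zeb1 85 and 162 (-0.94, -1.34 to -0.56). Over 16 other settings the ratio of Zeb1 ran from -1.64 to -0.12.

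**Figure D4:**
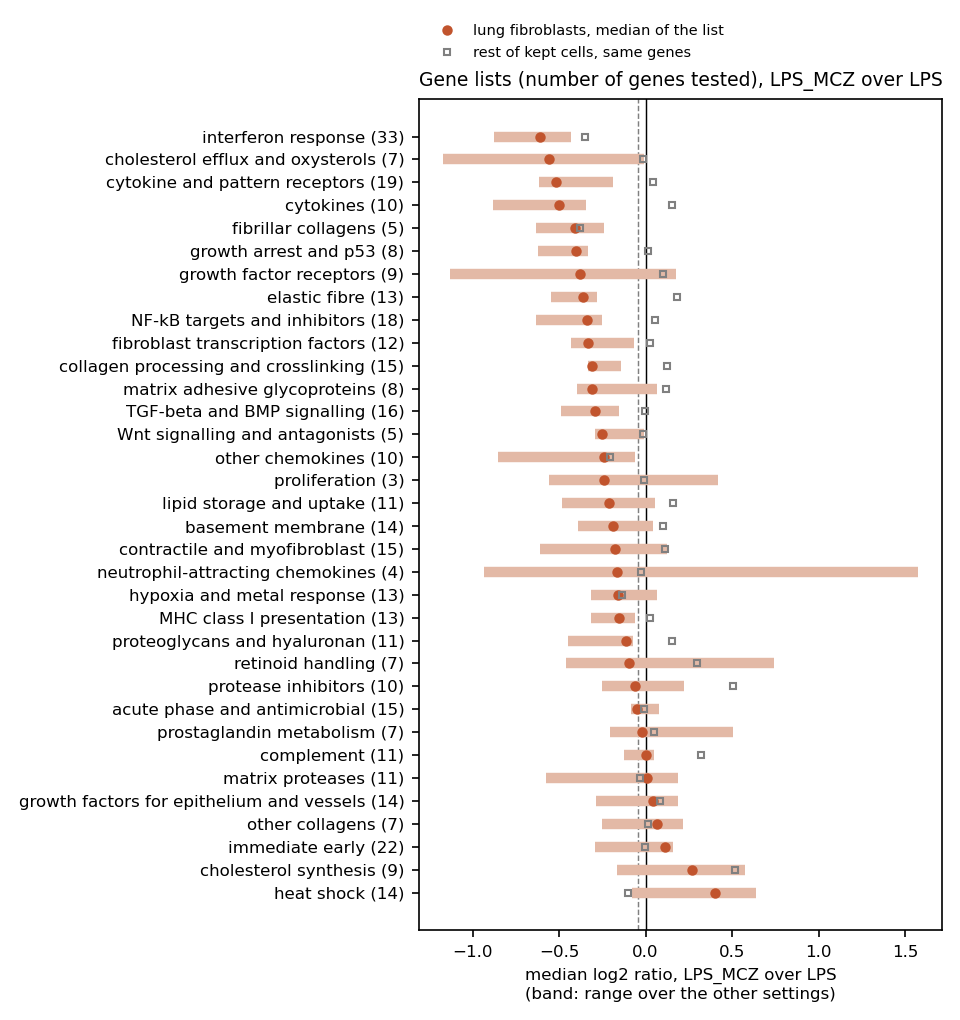
Median log2 ratio of LPS_MCZ over LPS (x axis) of the 34 gene lists in fibroblasts (circles) and of the same genes in the rest of the kept cells (open squares), with bands for the range over the other settings and a dashed line at the median of all genes tested (-0.05). The interferon response band runs from -0.88 to -0.43, and the heat shock band crosses 0.

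Ranked over all genes with at least 100 UMIs, 11 of the 12 highest ratios were those of Tac1, Cxcl5, Kiz, Inmt, Saa1, S100a4, Nr4a2, Clstn2, Lrmda, Sntg1 and Dnmbp. Inmt, an amine methyltransferase that marks alveolar fibroblasts, had 146 UMIs in 16 of 46 LPS_MCZ cells and 21 UMIs in 3 of 67 LPS cells (2.74, 2.12 to 3.52). After thinning, Inmt had a UMI in 25.6% of LPS_MCZ fibroblasts (13.5% to 41.2%) and 1.96% of LPS fibroblasts (0.0496% to 10.4%), and in 0% of T cells of both libraries (floors of 0.652% and 0.305%). Inmt lay mostly in cluster 2, and within that cluster its ratio was 2.02. Tcf21, another alveolar fibroblast gene, had the other sign (-1.24).

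Kiz, a centrosome protein, had 150 UMIs in 20 LPS_MCZ cells and 21 in 14 LPS cells (2.78, 2.16 to 3.56), and S100a4, a calcium-binding protein, 268 in 21 LPS_MCZ cells and 47 in 14 LPS cells (2.48, 2.05 to 2.98). The nuclear receptor Nr4a2 had 101 UMIs in 18 LPS_MCZ cells and 25 in 8 LPS cells (1.97, 1.36 to 2.70). For each of these 3 genes, 1 LPS_MCZ cell gave a large part: 54 UMIs of Kiz, 111 of S100a4 and 44 of Nr4a2. Other high genes rested on few cells. Tac1, the substance P precursor, had 127 UMIs in 4 LPS_MCZ cells, 104 of them in 1 cell, and 1 UMI in LPS (interval 4.47 to 12.3). Saa1 had 125 UMIs in 3 LPS_MCZ cells and 20 in 2 LPS cells (2.59, 1.94 to 3.39). The ratios of Clstn2 (1.87), Lrmda (1.83), Sntg1 (1.79) and Dnmbp (1.70) came from 9 to 16 LPS_MCZ cells and 10 to 20 LPS cells. Outside this ranking, Hbegf, an epidermal growth factor ligand, had 76 UMIs in LPS_MCZ and 9 in LPS (2.97), 58 of the 76 in 1 cell, and in clusters 1 and 2 alone its ratio was 0.33. Hbegf and S100a4 led cluster 4, which gave a larger share of the LPS_MCZ UMIs, and S100a4 had a ratio of 2.24 in clusters 1 and 2 alone. The lymphatic growth factor Vegfd had 39 UMIs in 16 LPS_MCZ cells and 15 in 7 LPS cells (1.33, 0.47 to 2.33).

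The 12 lowest ratios were those of Itgb8, Ccl4, Rsad2, Ifit1, Cyp7b1, Adm, Cxcl10, Mir100hg, Angptl7, Lilrb4a, Lmcd1 and Slit2. Adm, adrenomedullin, a vasodilator peptide, had 30 UMIs in 13 LPS_MCZ cells and 138 in 25 LPS cells (-2.19, -2.84 to -1.64), and 105 of the LPS UMIs remained without its highest cell. Itgb8, the integrin subunit that activates latent TGF-beta, had 7 UMIs in LPS_MCZ and 128 in LPS (-4.08, -5.55 to -3.12), but 111 of the LPS UMIs lay in the cell of 56494 UMIs. That cell also gave 115 of the 177 LPS UMIs of Slit2, a guidance ligand, against 51 UMIs in LPS_MCZ (-1.79). The ratios of Mir100hg (-2.01), Angptl7 (-1.98) and Lmcd1 (-1.86) rested on 7 to 19 cells a library, with 4 LPS_MCZ cells for Angptl7. The leukocyte genes Ccl4 (-2.55) and Lilrb4a (-1.96) had up to 40% and 47% of their LPS_MCZ UMIs open to free RNA, and Ccl4 stood at 0.0083 without the possible doublets.

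**Figure D5:**
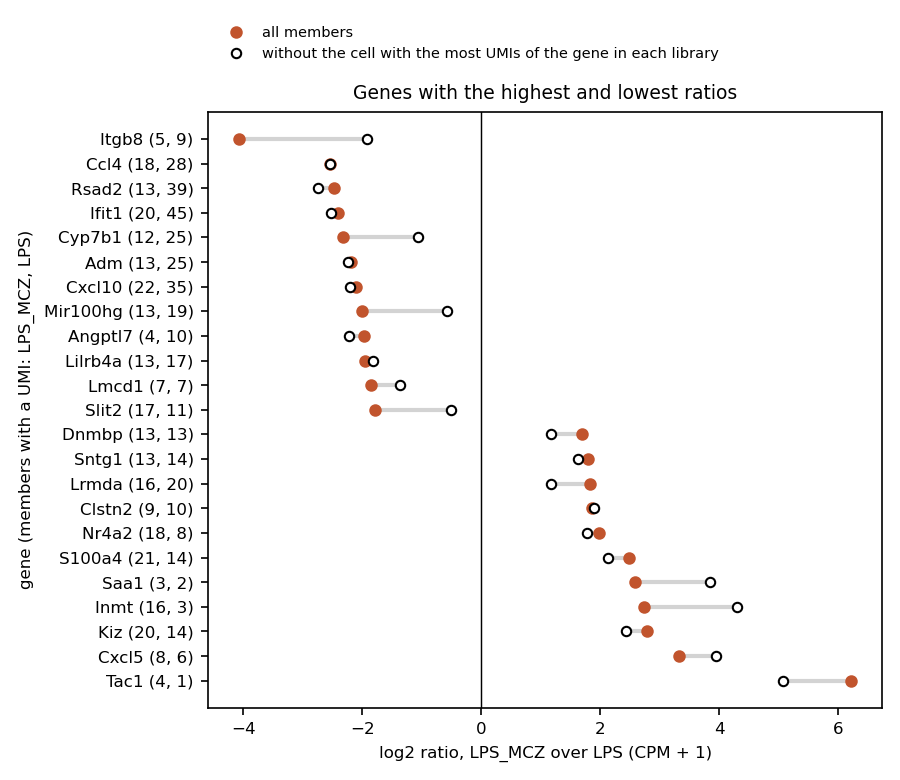
Log2 ratios of LPS_MCZ over LPS (x axis, CPM + 1) of 23 of the genes with the highest and lowest ratios, over all fibroblasts (filled) and without the cell with most UMIs of the gene in each library (open), with the number of fibroblasts with a UMI in LPS_MCZ and LPS beside each name. Itgb8, Cyp7b1, Mir100hg and Slit2 move toward 0, while Ifit1, Rsad2, Adm and Cxcl10 stay between -2.21 and -2.75.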

How the data were processed

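Single-cell 3′ RNA libraries were made from dissociated lung, 1 library per group. The authors deposited whole-number UMI counts per gene and barcode, made with Cell Ranger 7.0.0 per the file headers and with bcl2fastq 2.20 and mm10 per the submitters' processing notes. Whether intronic reads were counted is not given in the sources used here. Summed counts of the chosen cells were divided by their total (CPM), and log2 ratios of LPS_MCZ over LPS were taken on CPM + 1, with exact binomial intervals that cover counting error only. A gene was tested at 50 or more UMIs over both libraries and called at 1.5-fold. With 1 library per group no test was possible. Free RNA was estimated from each library's summed profile, scaled to S100a8 and S100a9 in the chosen cells. Doublets were not removed and no doublet caller was run; the member rule and the sums without cells carrying Ptprc with Lyz2 or Csf3r stand in for it. Cells were clustered with scanpy 1.11.5 and leidenalg 0.10.2 (1500 variable genes, 15 principal components, 10 neighbours, resolution 0.5), and a cluster was named from at least 3 markers. The name was withheld where another cell type had more markers among the cluster's 10 leading genes. Other computing used Python 3.11.15, numpy 2.4.6, pandas 2.3.3 and scipy 1.17.1, and the ratio calculation was tested on simulated data. The named genes are the 12 highest and 12 lowest ratios at 100 or more UMIs whose interval lies on 1 side of 0 and that are not open to free RNA, up to 4 genes per list with the largest ratios plus 1 or 2 that define it, the markers, and the genes highest over the rest of the cells. The members and lists were chosen with earlier results of these data known. Results of 3 genes are not reported here.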

Additional observations from a re-analysis of the deposited data

Results flagged for a closer look

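Among the genes with the highest and lowest ratios, 3 had a log2 ratio of LPS_MCZ over LPS of one sign in fibroblasts and of the other in the rest of the kept cells, with both counting intervals clear of 0. The difference was not tested. Saa1, an acute phase protein, stood at 2.59 in fibroblasts and -1.30 in the rest of the kept cells, with 101 of the 125 LPS_MCZ fibroblast UMIs in 1 cell. Nr4a2, a nuclear receptor, stood at 1.97 in fibroblasts and -0.18 in the rest of the kept cells, with 44 of the 101 LPS_MCZ fibroblast UMIs in 1 cell. Cyp7b1, an oxysterol hydroxylase, stood at -2.33 in fibroblasts and 0.44 in the rest of the kept cells, with 195 of the 277 LPS fibroblast UMIs in 1 cell.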

How the results depend on the processing

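No paired analysis was possible because each group is 1 library. The interferon response median lay between -0.88 and -0.43 under 16 other settings, among them a fold of 2, which cannot move a median. It was -2.15 within cluster 5, over 12 genes in 4 LPS_MCZ and 5 LPS cells. Of 104 genes with a ratio, 104 kept their direction with free RNA subtracted and without the deepest cell of each library. The same held under median-of-ratios scaling, which moves all ratios nearly alike. A pseudocount of 10 CPM cannot change a direction. The settings without the deepest cell, without each gene's highest cell, without shared barcodes and for clusters 1 and 2 alone were chosen after seeing the data. For reversed values the cause was not tested.

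Genes at least 1.5-fold higher and lower (351 and 695) became 71 and 131 at 200 UMIs, 3577 and 4157 with no minimum, 78 and 228 at a fold of 2, and 963 and 1349 after thinning to 2000 UMIs. The higher genes numbered 643 without the possible doublets, 677 with each cell weighing the same, 633 in cluster 1, 557 in cluster 3 and 690 in clusters 1 and 2. The lower genes numbered 381 in cluster 2, 201 in cluster 4 and 325 in cluster 5.

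Without the possible doublets the medians were -0.63 for fibrillar collagens, -0.081 for early response genes and -0.034 for heat shock. After thinning they were -0.24, -0.29 and -0.080, and with equal cell weights -0.25 for early response and 0.055 for heat shock. Within clusters 1, 3, 4 and 5 the fibrillar collagen median, which rests on genes that chose the cells, was -1.02, -0.60, -0.080 and -0.23. The acute phase median in clusters 1 to 5 was 0.26, -0.28, 0.32, 0.49 and -0.85. Heat shock stood at 0.70, 0.76, 0.17 and -0.36 in clusters 1, 2, 3 and 5, and early response at 0.50, 1.46 and -0.27 in clusters 2, 4 and 5. Elastic fibre stood at 0.047 and -0.99 in clusters 3 and 5, cytokine receptors at 0.36 and -1.05 in clusters 4 and 5, and NF-kB at 0.65 in cluster 4.

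Genes whose ratio had the other sign numbered 6 without the possible doublets, 7 after thinning, 4 with equal weights, 3 in clusters 1 and 2 alone, and 5 of 98, 11 of 70, 11 of 70, 9 of 49 and 10 of 44 within clusters 1 to 5. Under 1.5-fold over all cells, they included Dcn (-0.45 without the possible doublets), Sparc (0.16), C3 (-0.11) and Ccl2 (-0.14) after thinning, and Acta2 (0.12) and Tagln (0.64) in clusters 1 and 2 alone. Named next are those at least 1.5-fold apart over all cells. Without the possible doublets they were Cxcl5 (-1.25), Ccl4 (0.0083), Ptx3 (-1.56), Hspa1a (-0.20) and Dnajb1 (-0.37). After thinning they were Pdgfra (0.79), Hspa1a (-0.0086), Dnajb1 (-0.21) and Ch25h (0.093), and with equal weights Pdgfra (0.15). In clusters 1 and 2 alone it was Clstn2 (-2.59). In cluster 2 they were Mfap4 (0.0076), Pdgfra (0.57), Lcn2 (-1.51), Ptx3 (-0.20) and Hspb1 (-0.77). In cluster 3 they were Dnmbp (-0.46), Slit2 (1.63), Cd44 (0.031), Ccl7 (0.49), Ccl8 (0.22), Srebf2 (-0.093) and Zeb1 (0.24). In cluster 4 they were Tnfrsf1a (0.41), Ccl8 (0.29), Csf1 (0.41), Hspb1 (-0.51) and Dnaja1 (-0.12), and in cluster 5 Lcn2 (-2.42), Hspa1a (-2.31), Fos (-0.10) and Zeb1 (0.51).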
